A study of Citrus sinensis with 2 samples.

Results

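The miRNAs described here are names that plant biology ties to sulfate, phosphate and nitrogen nutrition, namely miR395, miR399, miR827, miR447, miR2111 and miR169. MiR1077, a name first given in a moss, was taken in because its listed sequence is close to the one listed for miR395. All 7 were chosen by name from the deposited read-count table of known miRNAs and were found among its 1215 names. Leaves of Citrus sinensis cultivar Xuegan (sweet orange) were compared after 16 weeks without Mg (0 mM MgSO4, Mg-deficient) and after 16 weeks at 1 mM MgSO4 (Mg-sufficient). Seedlings were moved to 6 L pots of sand at the age of 5 weeks, and the treatments began 10 weeks later. Sulfate was held level by giving Na2SO4 in place of MgSO4, and the phosphate and nitrate of the nutrient solution were the same in both treatments. Each treatment was sequenced as 1 small RNA library from the pooled leaves of 5 plants, so that no difference below has a replicate check by sequencing. The paper also measured selected known miRNAs by stem-loop qRT-PCR in biological replicates. It reports that all but miR1222, miR7730 and miR5832 matched the sequencing. Of the 7 names, its primer list holds miR395 and miR1077 only. The sequences given there for both names equal those listed below, and the paper designed its forward primers from them. A match by PCR therefore concerns the same sequences, and the RNA from which they came was not tested. Whether the primers tell miR395 from miR1077 was not tested either. The PCR values were not used here. All labels name leaves except the extraction note, which names roots, and a table of miRNA names holds no leaf marker by which the tissue could be checked.

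A plant miRNA is cut from a hairpin transcript, is loaded into an Argonaute protein and guides it to mRNAs that pair with it closely, which are then cleaved or kept from translation. Several of these miRNAs are known as switches of mineral nutrition. In Arabidopsis, miR395 accumulates when sulfate is short and lowers ATP sulfurylases and a sulfate transporter, miR399 and miR827 accumulate when phosphate is short and lower components of the ubiquitin system that hold phosphate uptake down, and miR169, which targets NF-YA transcription factors, declines when nitrogen is short. MiR2111 is also known to follow the phosphate status of Arabidopsis, and in legumes it travels from shoot to root and acts on root nodulation. MiR447 is known mainly from Arabidopsis, where its targets belong to the 2-phosphoglycerate kinase relatives.

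The sequences listed by the study for 6 of the 7 names are shown because the largest difference described below belongs to a pair of names with almost the same sequence. They run 5′ to 3′, and the capitals mark the seed, bases 2 to 8. No sequence of miR447 was used here. None of the listed sequences was compared with those that bear the same names in other plants.
miR395: gUGAAGUGuucggaucgcc
miR1077: uUGAAGUGuucggaucgcggc
miR399: gGGCACCUcuuacuuggcaug
miR827: uUAGAUGAccaucaacaaaca
miR2111: uAAUCUGCauccugagguuug
miR169: cAGCCAAGgaugacuugccgg

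MiR395 and miR1077 have the same seed and share an unbroken run of 17 bases, from position 2 to position 18 of both. Aligned from their 5′ ends over 19 bases they have 2 mismatches, at positions 1 and 19. No other pair that included 1 of these names reached an overlap of 17 bases with at most 2 mismatches, either among the 690 known names with a listed sequence or against the 113 miRNAs that the study predicted from the genome. The longest run that miR395 or miR1077 shared with any further known name with a listed sequence was 9 bases. MiR395 has 19 bases, while the other 5 sequences have 21, which is also the median length over the 690 names. A length of 19 bases or less was listed for 10.1% of these names. The first base was U in 3 of the 6 sequences and in 49.7% of all listed sequences, and it was G in miR395 and in miR399. The GC content was highest in miR169 (61.9%) and lowest in miR827 (33.3%), around a median of 42.1% over the 690 names.

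Clean reads numbered 20328011 in the Mg-deficient and 22218850 in the Mg-sufficient library, and known miRNAs took 14.8% of them without Mg and 22.9% with Mg. The paper's table of reads has the smaller total and the smaller miRNA share under Mg-sufficiency instead. If its headings held, every direction below would be reversed. The paper's list of predicted miRNAs scales control counts by the larger total, as deposited. The deposited assignment was used, and which one is right was not tested. Values below are normalized read-counts in RPM, the count per 1000000 clean reads, with a 95% Wilson interval. The log2 ratio is that of the Mg-deficient over the Mg-sufficient library, with an exact Clopper-Pearson interval from the split of the counts. All intervals cover counting error only, and PCR copies are not independent molecules. A name was called when it had at least 10 RPM in at least 1 library, a log2 ratio beyond 1.5 in either direction and a tail of the Audic-Claverie formula below 0.01, a test between 2 sets of reads and not between treatments. In bulk leaves, fewer cells that hold a miRNA and less of it per cell cannot be told apart.

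Of the 7 names, 3 passed the filter on abundance (miR395, miR1077 and miR169) and 4 did not (miR399, miR827, miR447 and miR2111). MiR395 and miR1077 were called higher in the Mg-deficient library and none was called lower. Over all names, 324 passed the filter, of which 28.1% were called higher and 25.6% were called lower. More than 1 in 2 of the names that passed (53.7%) was thus called in either direction, and 2 calls among 3 names, from a pair with nearly 1 sequence, cannot be set apart from that background. Together the 7 names had 148667 counts in the Mg-deficient library, or 4.95% of all known miRNA counts there, against 1207 counts, or 0.0237%, in the Mg-sufficient library. Without miR395 and miR1077 the sums were 589 counts (29.0 RPM) in the Mg-deficient and 1121 counts (50.5 RPM) in the Mg-sufficient library. The gain of the group therefore lay in the miR395 and miR1077 names, and the other 5 had fewer reads in sum.

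**Figure D1:**
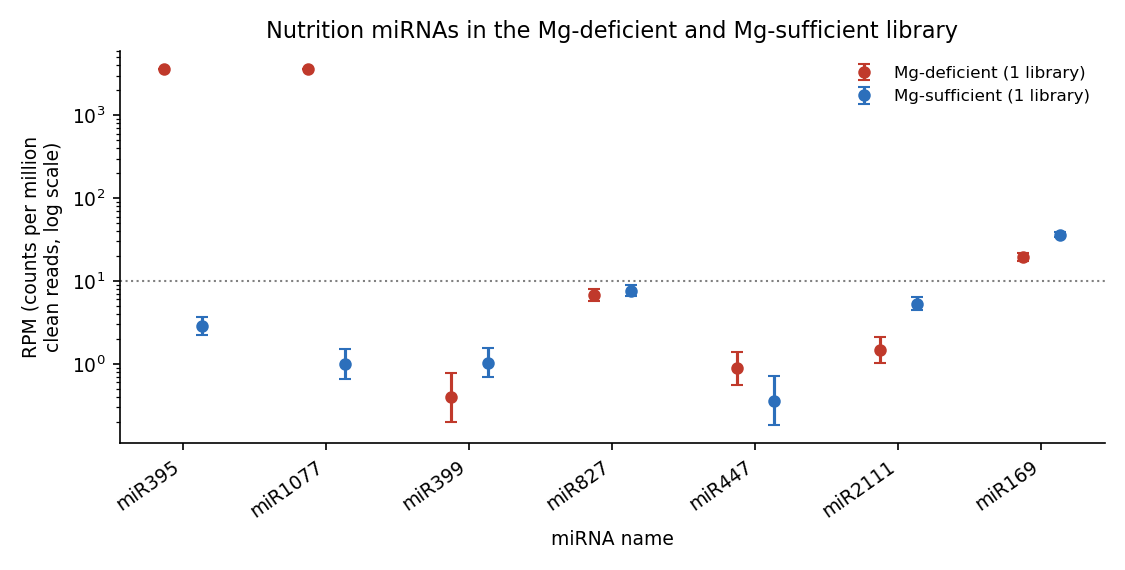
Normalized read-counts (RPM, log scale) of the 7 names in the Mg-deficient library (red, left of each pair) and the Mg-sufficient library (blue, right), with 95% Wilson intervals for counting error and 1 library per treatment. MiR395 and miR1077 stand at 3640 and 3644 RPM in the Mg-deficient library, while miR169 is the only other name above the dotted line of 10 RPM.

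The name miR395, which in Arabidopsis belongs to the sulfate starvation miRNA, reached 73994 counts in the Mg-deficient library, against 64 counts in the Mg-sufficient library. These counts are 3640 RPM (95% interval, 3614 to 3666) without Mg and 2.88 RPM (2.26 to 3.68) with Mg. The log2 ratio was 10.30 (9.95 to 10.68), a 1264-fold difference with an interval of 989 to 1641. By abundance the name was at rank 8 of the 1215 names in the Mg-deficient library and at rank 391 in the Mg-sufficient library.

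MiR1077 had 74084 counts (3644 RPM, 95% interval 3618 to 3671) in the Mg-deficient library, against 22 counts (0.990 RPM, 0.654 to 1.499) in the Mg-sufficient library. The log2 ratio was 11.85 (11.25 to 12.52) and the fold 3681, with an interval of 2431 to 5874. Its rank was 7 without Mg, next to miR395, and 579 with Mg. The paper lists a SecY protein transport family gene as a target, predicted or known, of both miR1077 and miR395. Its measurements of targets were not used here. No other target of a miRNA of this name is known well enough to be given.

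The counts of the pair were almost equal in the Mg-deficient library. MiR1077 had 90 counts more than miR395 there, which made up 49.97% of the sum of both (exact 95% interval, 49.7 to 50.2%). In the Mg-sufficient library it made up 74.4% of a sum of 86 counts (63.9 to 83.2%), an interval that does not reach the value of the other library. How a read that fits several names was counted is not stated in the sources used here, so the pair may hold the same reads under both names, and the values of each are uncertain. Summed over both names, the libraries had 148078 and 86 counts in the Mg-deficient and Mg-sufficient library, a log2 ratio of 10.88 (10.57 to 11.20).

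Only 9 of the 324 names that passed the filter had a larger log2 ratio than miR395. Of these, 7 were listed at 0 with Mg, so that their ratios are lower bounds against 3 counts, 1 had 3 counts with Mg, and the remaining 1 is miR1077. When the names of 3 counts or fewer in a library were left aside, miR1077 and miR395 had the highest positive log2 ratios of those that passed the filter. The names nearest to miR395 by log2 RPM in both libraries, after miR1077 at a distance of 1.54, were miR2616 and miR529. MiR2616 had 39850 counts without Mg and 570 with Mg, and miR529 had 5700 without Mg and 60 with Mg. For miR1077 the nearest after miR395 (distance 1.54) were miR5832 at 3.001 and miR7709 at 3.09, which had 40754 and 33461 counts without Mg and were listed at 0 with Mg. Only miR1077 has a sequence near that of miR395 among them.

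Among the known names with a listed sequence, the seed of the pair is shared with 1 further name, miR5644. This name was picked with its values already seen. Its sequence is listed as follows.
miR5644: gUGAAGUGgcggauaacggua
It shares a run of 8 bases with miR395 and had 112 counts (5.51 RPM) in the Mg-deficient library, against 176 counts (7.92 RPM) in the Mg-sufficient library. The large difference was seen for the pair, which shares the 17-base run, and not for miR5644. With 1 such name, no dependence on the sequence can be read from this. Neither sequence of the pair was compared with miR395 of other plants or with ribosomal RNA, which is known to hold a closely similar run in plants. The authors removed ribosomal RNA reads before they matched the rest to miRNAs. In the paper's table of reads, ribosomal RNA takes the larger share of the library that has the clean-read total deposited for the Mg-deficient leaves. That table, however, heads this library as Mg-sufficient. The part of ribosomal RNA in the counts of the pair was not tested, and whether the counted reads come from a MIR395 gene was not tested.

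**Figure D2:**
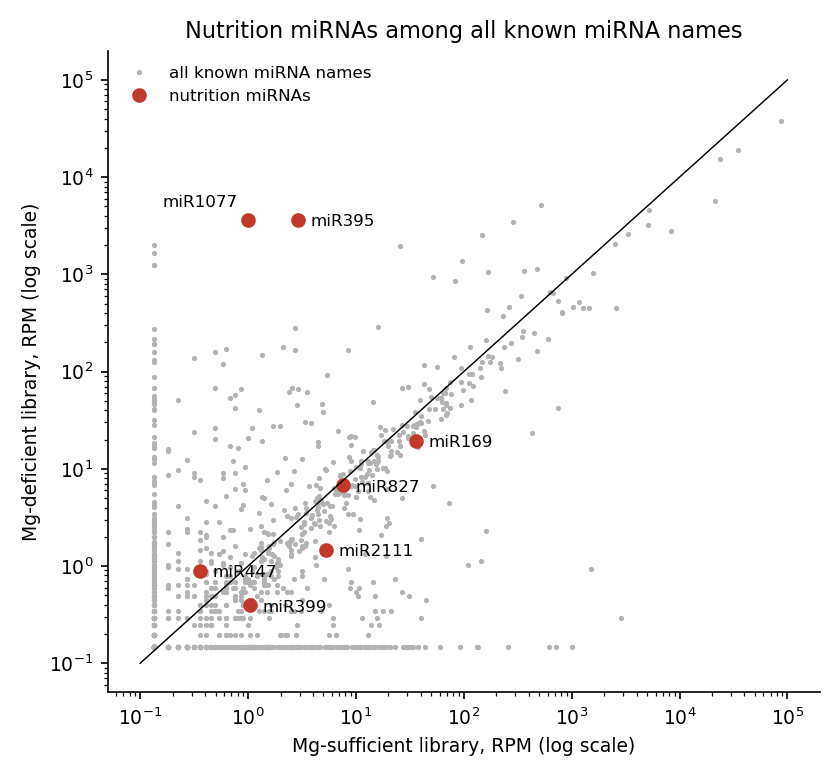
Normalized read-counts (RPM, both axes log scale) of the 1215 known names in the Mg-deficient library (vertical) and the Mg-sufficient library (horizontal), with counts under 3 drawn at 3 counts, the 7 nutrition names in red and the line of equal values. MiR395 (3640 RPM against 2.88 RPM) and miR1077 (3644 RPM against 0.990 RPM) lie far above the line, and the other 5 names lie within the main cloud.

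The phosphate names were scarce in both libraries. In Arabidopsis the name miR399 belongs to a miRNA that targets the ubiquitin-conjugating enzyme PHO2. Whether the sequence listed here is the strand that pairs with PHO2 was not tested. The name had 8 counts (0.394 RPM, 95% interval 0.199 to 0.777) in the Mg-deficient library. In the Mg-sufficient library it had 23 counts (1.04 RPM, 0.690 to 1.55). The log2 ratio was -1.40 (-2.77 to -0.18), within the threshold. It lay at rank 642 in the Mg-deficient and rank 571 in the Mg-sufficient library. The median of the names with a count was 1.13 RPM in the Mg-deficient library, above the interval of miR399 there, and 1.44 RPM in the Mg-sufficient library, within its interval.

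MiR827, which targets the ubiquitin ligase NLA in Arabidopsis, had 137 counts (6.74 RPM, 5.70 to 7.97) in the Mg-deficient library and 170 counts (7.65 RPM, 6.58 to 8.89) in the Mg-sufficient library. The log2 ratio of -0.18 had an interval that includes 0 (-0.52 to 0.15), so no difference was detectable at this depth. Its sign also turned with the library size, to 0.45 when libraries were scaled by their known miRNA counts, 0.18 with the size factors of DESeq2 and 0.16 with the TMM factors of edgeR. MiR827 kept nearly the same rank, 274 in the Mg-deficient and 270 in the Mg-sufficient library.

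MiR447 had 18 counts (0.885 RPM, 0.560 to 1.40) in the Mg-deficient library, against 8 counts (0.360 RPM, 0.182 to 0.711) in the Mg-sufficient library. The log2 ratio of 1.30 was positive, but with so few reads its interval ran from 0.02 to 2.71. It was the least abundant of the 7 names in the Mg-sufficient library, at rank 772, and was at rank 507 in the Mg-deficient library.

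MiR2111, whose targets in Arabidopsis include an F-box gene, had 30 counts (1.48 RPM, 1.03 to 2.11) in the Mg-deficient library and 118 counts (5.31 RPM, 4.44 to 6.36) in the Mg-sufficient library. The log2 ratio was -1.85 (-2.48 to -1.26), the lowest of the 7, and the level was 3.60-fold lower without Mg. MiR2111 did not pass the filter. With no filter it met the other criteria, as did 23.5% of all 1215 names in this direction, 18.1% in the other and 41.6% in either. Its log2 ratio was -1.21 when libraries were scaled by their known miRNA counts and -1.48 with the size factors of DESeq2, both short of the threshold.

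Each of these 4 phosphate names stayed under 10 RPM in both libraries, and their summed counts were 193 in the Mg-deficient and 319 in the Mg-sufficient library. They did not move as a group. With the clean-read totals, miR399 and miR2111 were lower without Mg by more than the counting error, miR447 was higher, and miR827 did not differ by more than the counting error. Of these, the lower level of miR2111 alone kept an interval away from 0 under each library size tried. The interval of miR399 included 0 with TMM (-2.43 to 0.15), with the size factors of DESeq2 (-2.40 to 0.18) and with known miRNA counts (-2.13 to 0.45), and that of miR447 included 0 with the clean-read totals exchanged (-0.23 to 2.45). For miR827 the interval lay above 0 with known miRNA counts (0.12 to 0.78) and below 0 with the totals exchanged (-0.78 to -0.11). The listed sequences of miR399, miR827 and miR2111 were not near any other among the 690 known names with a listed sequence. Their nearest names by level were miR7756 (9 counts without Mg and 23 with Mg), miR2084 and miR4374 for miR399. For miR827 they were miR831 (132 counts without Mg and 166 with Mg), miR826 and miR830. For miR447 they were miR1142 (18 counts without Mg and 9 with Mg), miR4232 and miR7716, and for miR2111 they were miR6476 (25 counts without Mg and 92 with Mg), miR5542 and miR834.

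**Figure D3:**
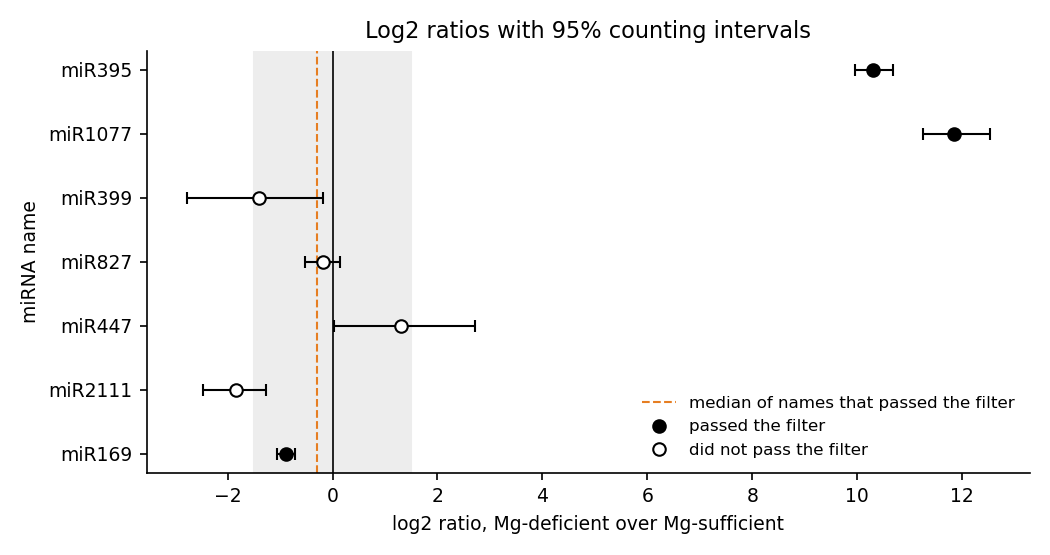
Log2 ratio of the Mg-deficient over the Mg-sufficient library for the 7 names, with 95% Clopper-Pearson intervals for counting error; filled points passed the filter, the grey band marks log2 ratios within 1.5 of 0, and the dashed line is the median of the names that passed (-0.30). MiR395 (10.30) and miR1077 (11.85) lie far to the right, miR2111 (-1.85) lies beyond the band on the left without having passed the filter, and the interval of miR827 includes 0.

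MiR169, the NF-YA miRNA, was the only other name to pass the filter. It had 396 counts (19.5 RPM, 17.7 to 21.5) in the Mg-deficient library and 802 counts (36.1 RPM, 33.7 to 38.7) in the Mg-sufficient library. The log2 ratio was -0.89 (-1.07 to -0.71), a 1.85-fold lower level that exceeded the counting error but not the threshold. Its rank was 183 in the Mg-deficient and 120 in the Mg-sufficient library. The nearest names by level were miR858, with 338 counts in the Mg-deficient and 837 in the Mg-sufficient library, miR8138 and miR1520.

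Relative to the shift of the whole table the difference of miR169 was smaller. The median log2 ratio of the 324 names was -0.30, with 191 of them below 0 and 133 above, and miR169 lay 0.59 below that median. The median of the 5 names other than the pair was -0.89, with 4 of the 5 below 0. Another library size moved the log2 ratio of every name up by 0.34 (TMM), 0.37 (DESeq2) or 0.63 (known miRNA counts). It fell by 0.26 when the clean-read totals were exchanged between the libraries. This exchange is a change of scale alone, whereas the paper's table of reads has totals and miRNA reads together under the opposite treatments. MiR169 kept its sign under all 4 of these library sizes, between -1.15 and -0.25. So did miR399 (-1.65 to -0.76), miR447 (1.04 to 1.93) and miR2111 (-2.10 to -1.21).

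**Figure D4:**
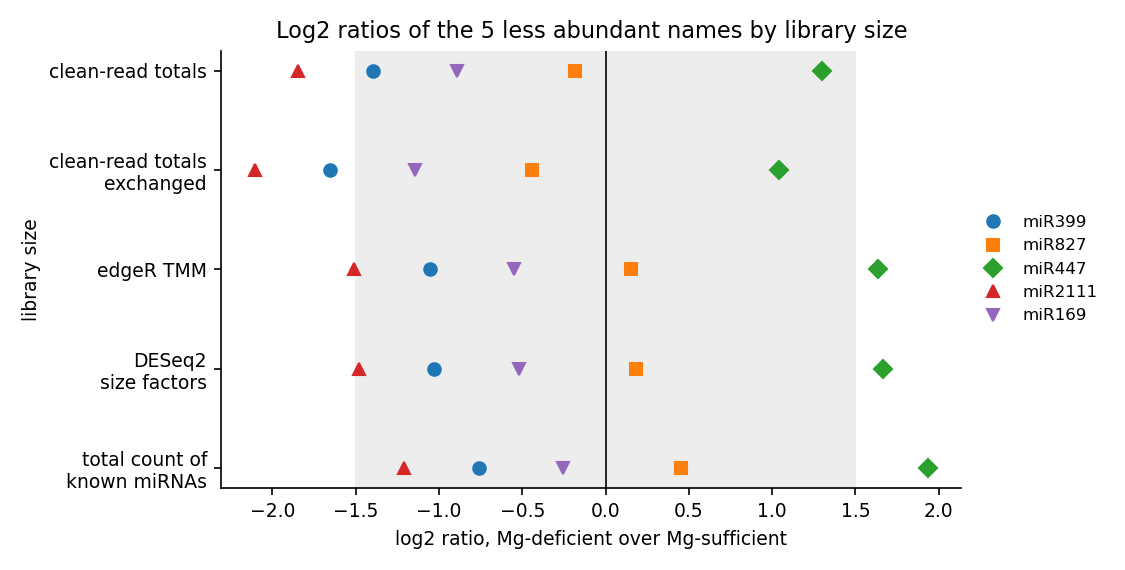
Log2 ratio of the Mg-deficient over the Mg-sufficient library for the 5 names other than miR395 and miR1077, 1 symbol per name, under 5 choices of library size; the grey band marks log2 ratios within 1.5 of 0. MiR827 changes sign (-0.44 to 0.45), miR2111 lies inside the band with the size factors of DESeq2 (-1.48) and with known miRNA counts (-1.21), miR447 leaves it with TMM (1.64), DESeq2 (1.67) and known miRNA counts (1.93), miR399 leaves it with the totals exchanged (-1.65), and miR169 stays below 0.

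The count table has 1 value per name, while citrus has several genes for some of them. The gene table of RefSeq for citrus (assembly DVS_A1.0) was searched for names and neighbours only. In it, 17 genes named MIR169 with a letter were found on 6 chromosomes, 6 named MIR399 on 3 chromosomes, 3 named MIR395 on 2 chromosomes and 1 named MIR2111. No gene there matched miR827, miR447 or miR1077 by name. Several copies stand in clusters. Among the MIR169 genes 4 pairs are direct neighbours, for example MIR169E with MIR169D and MIR169D with MIR169I, as are MIR399E with MIR399C and MIR399F with MIR399A, and 1 gene lies between MIR395C and MIR395A. Which copy gave the reads of a name cannot be told from these counts.

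Other miRNAs known for mineral nutrition were taken for comparison. Of 17 such names in 3 lists, 14 were in the count table and 11 passed the filter, of which 1 was called higher and 1 was called lower. Their median log2 ratio was -0.41, against -0.30 over all names that passed, and 6 of the 11 names were below 0 and 5 above.

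In the copper list, which holds miRNAs that spare copper by lowering copper proteins, 4 of 4 names were in the table and 3 passed the filter, with a median of 0.78. MiR398, which targets copper superoxide dismutases, rose to 22159 counts (1090 RPM) in the Mg-deficient library, against 8029 counts (361 RPM) in the Mg-sufficient library. Its log2 ratio was 1.59 (1.56 to 1.63), just past the threshold, and the call was lost when the clean-read totals were exchanged. MiR397, a laccase miRNA, had 140 RPM without Mg and 81.7 RPM with Mg, a log2 ratio of 0.78. MiR408 had 921 RPM without Mg and 894 RPM with Mg, a log2 ratio of 0.04. MiR857 did not pass the filter, with 10 counts without Mg and 7 with Mg.

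In the list of phosphate limitation 5 of 7 names were in the table and 4 passed the filter, with a median of -0.52. The paper also names miR397 (0.78), miR398 (1.59) and miR408 (0.04) for phosphate limitation, which were kept in the copper list here. The median therefore depends on how the lists were divided. MiR156, which targets SPL transcription factors, fell to 5674 RPM in the Mg-deficient library, against 21410 RPM in the Mg-sufficient library, with a log2 ratio of -1.92 that was short of the threshold when libraries were scaled by their known miRNA counts. The log2 ratio was -0.63 for miR166, -0.41 for miR159 and 0.39 for miR482, none past the threshold. MiR1510 had 76 counts without Mg and 48 counts with Mg.

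In the list of nitrogen supply 5 of 6 names were in the table, 4 passed the filter and none was called, with a median of -0.76. MiR171, which targets GRAS transcription factors, had 218 RPM in the Mg-deficient and 601 RPM in the Mg-sufficient library, a log2 ratio of -1.46, the nearest to the threshold. With the clean-read totals exchanged it was -1.72 and miR171 was called lower. MiR167 (-0.89) and miR393 (-0.63), both of the auxin pathway, had lower levels without Mg and miR160 (0.82), of the same pathway, a higher level. MiR826 did not pass the filter, with 126 counts in the Mg-deficient and 152 counts in the Mg-sufficient library. The log2 ratio of miR169 (-0.89) was thus close to that of miR167.

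**Figure D5:**
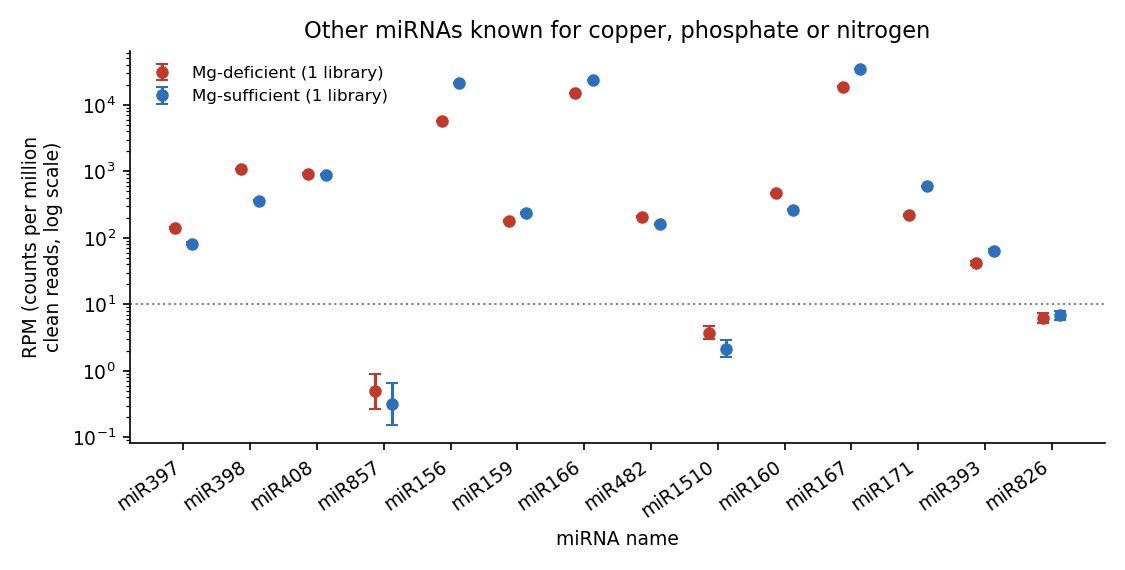
Normalized read-counts (RPM, log scale) of 14 other miRNAs known for copper (miR397 to miR857), phosphate limitation (miR156 to miR1510) and nitrogen supply (miR160 to miR826) in the Mg-deficient library (red, left) and the Mg-sufficient library (blue, right), with 95% Wilson intervals for counting error; the dotted line is 10 RPM. MiR398 (1090 RPM against 361 RPM) and miR156 (5674 RPM against 21410 RPM) are the names past the threshold.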

How the data were processed

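Small RNAs of 1 Mg-deficient and 1 Mg-sufficient leaf library, each from the mixed leaves of 5 plants, were sequenced on an Illumina instrument. After trimming, the authors aligned the clean reads to the JGI genome of C. sinensis by SOAP and took out rRNA, tRNA, snRNA and snoRNA reads. The rest were matched to miRBase, allowing 2 mismatches, and the authors deposited a raw count for each known name. They also deposited RPM values, counts divided by clean reads and multiplied by 1000000 (TPM in the paper). Values recomputed from counts equalled the deposited RPM within 0.0001 for all 1215 names. The authors' deposited fold changes and p-values were not used.

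The filter (10 RPM in a library), the log2 threshold of 1.5 and the p threshold of 0.01 follow the study's methods, where the log2 ratio is compared with 1.5. Counts under 3 were set to 3 for ratios (0.148 RPM in the Mg-deficient and 0.135 RPM in the Mg-sufficient library). Sequences came from the study's list of known miRNAs. The members and lists were chosen with earlier results of these data known. The names given are the members, names with a listed sequence near a member's, the 3 names nearest to each member by log2 RPM, and the lists of copper, phosphate limitation and nitrogen supply. The 12 alternatives covered library size, filter, threshold, test, 1 added count and summing near-identical names. Library sizes came from edgeR 4.0.16 and DESeq2 1.42.0 (R 4.3.3), and all else from Python 3.11.15, scipy 1.17.1 and pandas 2.3.3.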

Additional observations from a re-analysis of the deposited data

How the results depend on the processing

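MiR395 and miR1077 stayed called higher under 11 of the 12 alternatives. With at least 10 RPM required in both libraries, 0 members were called higher, since neither reached that level in the Mg-sufficient library. With no filter, 1 member (miR2111) was called lower. Of 42 log2 ratios of the 7 names under 6 alternatives, 39 kept their sign and their side of the calling rule and 3 changed sign, all of miR827: 0.16 (TMM), 0.18 (DESeq2) and 0.45 (known miRNA counts as library size).

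Over all names, 220 were called higher and 285 lower with no filter, 11 and 8 with at least 10 RPM in both libraries, and 49 and 23 with at least 50 RPM in a library. In the other nutrient lists, 0 names were called lower with known miRNA counts as library size, 0 higher and 2 lower with the clean-read totals exchanged, and 2 lower at a log2 threshold of 1. No paired analysis was possible because each treatment has 1 library. With 8 to 30 counts, miR399, miR447 and miR2111 in the poorer library are limited by depth.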
